A study of Rattus norvegicus with 10 samples.

Results

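Small leucine-rich proteoglycans are secreted matrix proteins, and 8 of their genes were followed in rat testis: Bgn, Dcn, Lum, Fmod, Ogn, Aspn, Prelp and Omd. Members were taken from probe sets whose only gene symbol in the platform annotation was one of these names. Each of the 8 genes had 1 such probe set, and they stood among 18166 named genes on the arrays. The proteins share a core of leucine-rich repeats that binds fibrillar collagen, and many carry chondroitin, dermatan or keratan sulfate chains. By coating growing fibrils they set fibril width and spacing, and they also bind growth factors such as transforming growth factor beta. In the testis such matrix lies in the wall of the seminiferous tubules, which peritubular myoid cells help to build, and in the interstitium around Leydig cells, macrophages and vessels.

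The samples were whole testes of Zucker rats labelled fa/fa, a genotype with a mutated leptin receptor that causes inherited obesity, and all rats were 14 weeks old and sexually mature. There were 4 arrays of under-developed testes from obese rats, 4 of normally developed testes from obese rats and 2 of normally developed testes from lean rats. The lean animals carry the fa/fa model in their labels as well, so their genotype was not settled. Samples were called biological replicates, but separate animals are not stated, so the p-values reflect only how far these samples spread. Every value below is a log2 expression level per probe set, or a difference of such levels. A difference of 1 is a 2-fold change, and levels of different genes are not set against each other because probe sets differ in brightness.

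Array medians lay between 6.14 and 6.38, and the small number of arrays, most of all in the lean group with 2, limits how precise any difference can be. Under-developed replicate 4 resembled the normal arrays. Over all genes its mean Pearson correlation with the 6 normal arrays was 0.995, while under-developed replicates 1, 2 and 3 had 0.856, 0.946 and 0.731. Within its group it correlated at 0.853, 0.944 and 0.729 with replicates 1, 2 and 3. Replicate 1 correlated at 0.962 with replicate 2 and at 0.947 with replicate 3. Replicates 2 and 3 correlated at 0.874 with each other, so replicate 2 was nearest to replicate 1, and nearer to replicate 4 than to replicate 3. A Dixon test for an outlying array, run for each member in each obese group, put 0 of 16 above its critical value. Because of its likeness to the normal arrays, results on under-developed testes are given with and without replicate 4. It was singled out by its expression values, so p-values without it describe the other arrays and not the labelled group. The labels do not settle whether this testis was affected like the others or was labelled correctly, so values over all arrays take it as labelled. Spermatid markers, which check the tissue label, averaged 8.37 to 12.33 on the under-developed arrays, against 12.35 to 12.39 on the normal obese and 12.34 to 12.38 on the normal lean arrays. Epididymis markers averaged 5.01 to 5.27 in under-developed testes, 5.07 to 5.12 in normal testes of obese rats and 5.04 to 5.13 in normal testes of lean rats.

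Promoter sequences were held for 5 of the 8 genes (Lum, Fmod, Ogn, Aspn and Omd). Of these, 3 are printed, chosen by how their genes differed in the expression results. A link between these sequences and expression was not tested. Ogn and Omd are neighbours that were both higher in 3 under-developed testes, and Fmod is the single member that was lower there. Each is the 250 bases before the annotated start, 5′ to 3′ on the strand of the gene, from RefSeq (build GRCr8). Capitals mark matches to the motifs searched. Ogn lies at chr17:15258996-15259245 on the minus strand, Omd at chr17:15274871-15275120 on the minus strand and Fmod at chr13:48045317-48045566 on the plus strand.
Ogn: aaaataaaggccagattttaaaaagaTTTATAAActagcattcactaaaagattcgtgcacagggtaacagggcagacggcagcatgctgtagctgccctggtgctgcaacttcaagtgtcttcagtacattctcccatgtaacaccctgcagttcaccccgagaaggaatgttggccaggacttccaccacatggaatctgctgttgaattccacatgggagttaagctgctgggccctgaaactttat
Omd: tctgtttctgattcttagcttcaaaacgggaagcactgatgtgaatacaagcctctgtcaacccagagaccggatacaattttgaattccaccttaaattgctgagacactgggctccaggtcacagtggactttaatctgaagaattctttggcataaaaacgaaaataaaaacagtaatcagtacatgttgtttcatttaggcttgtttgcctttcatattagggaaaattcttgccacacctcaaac
Fmod: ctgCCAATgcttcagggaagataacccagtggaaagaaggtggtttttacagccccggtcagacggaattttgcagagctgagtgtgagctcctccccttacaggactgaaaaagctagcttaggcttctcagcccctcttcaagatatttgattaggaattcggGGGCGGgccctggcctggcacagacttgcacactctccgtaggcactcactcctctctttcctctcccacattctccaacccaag
Both strands were searched for 6 short motifs. The letters TATAAA stood for the box that places the start of transcription, and the letters CCAAT and GGGCGG stood for the boxes bound by NF-Y and by Sp factors. The letters TGANTCA stood for AP-1 sites, AAGGTCA for sites of the gonadal receptor NR5A1 and TGACGTCA for the cAMP response element. The Ogn window held TATAAA on both strands, at overlapping positions 224 and 222 bases before the start. The Fmod window held CCAAT 247 bases and GGGCGG 85 bases before the start, and the Omd window held none of the letters searched. Of 33469 promoter windows of this length, 12.9% held TATAAA, 34.0% CCAAT, 30.5% GGGCGG, 6.34% TGANTCA, 3.99% AAGGTCA and 1.59% TGACGTCA. G and C made up 46% of the Ogn window, 38.8% of the Omd window and 52.8% of the Fmod window, against a median of 51.2% over all windows. Of the windows not printed, Lum held CCAAT on the reverse strand 130 bases before the start, and Aspn held none of the letters.

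The first comparison asked how the family differed between under-developed and normal testes of obese rats. In 3 of the 4 under-developed testes, Bgn, Dcn, Ogn, Omd, Prelp and Lum stood above every normal array, as did 28.7% of all genes, and Fmod stood below every normal array, as did 26.7% of all genes. Without replicate 4, the differences ran from 2.89-fold higher for Lum to 7.47-fold higher for Bgn, and Fmod was 4.56-fold lower. Aspn was clearly high on 1 array only. Replicate 4 lay inside the range of the normal obese arrays for 8 of 8 genes, as it did for 50.6% of all genes. These shares are not alike, because the normal obese arrays spread more for every member than for at least 90.4% of genes. A wider range is easier to fall inside.

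**Figure D1:**
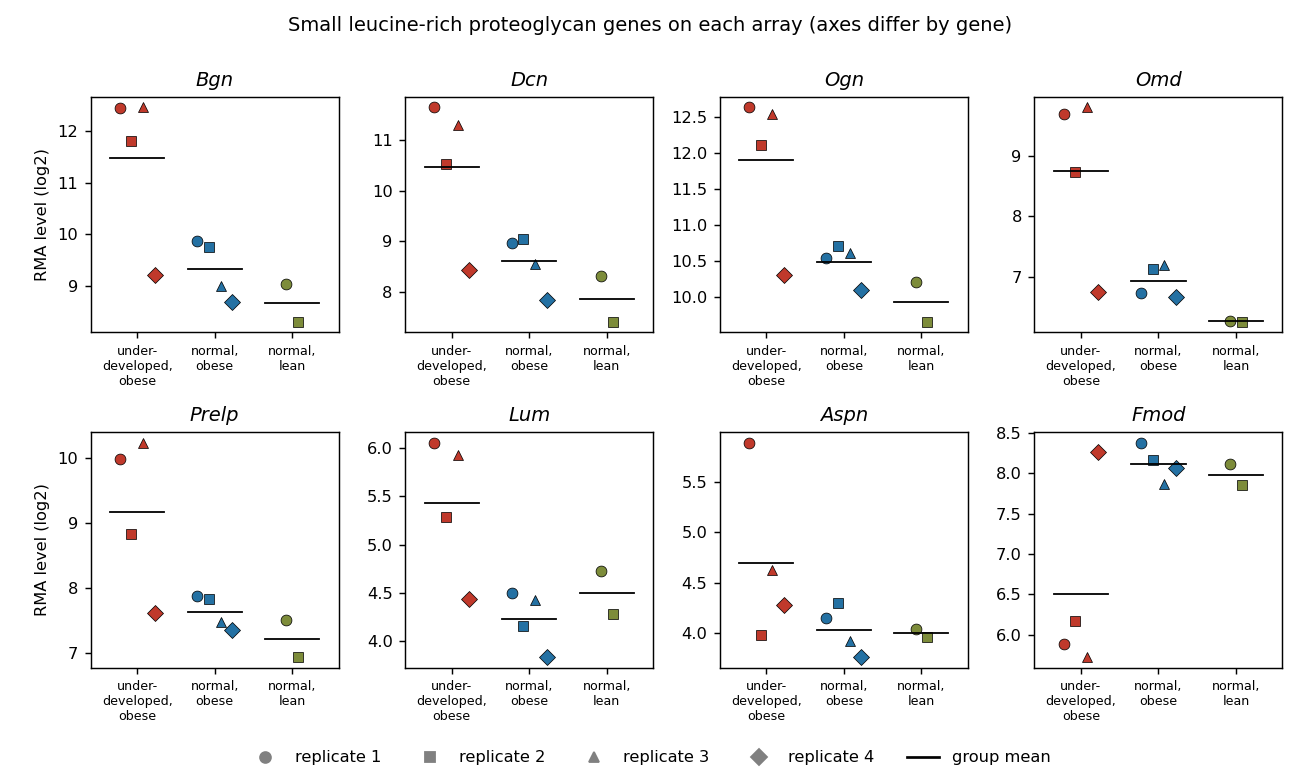
Log2 RMA level (y axis, a separate scale for each gene) of the 8 genes on each array, by group (under-developed and obese, normal and obese, normal and lean). Marker shapes give the replicate number and lines the group mean; under-developed replicates 1 to 3 lie above all normal arrays for 6 genes (28.7% of all genes) and below them for Fmod (26.7% of all genes), and replicate 4 lies among the normal obese arrays for all 8.

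Bgn and Dcn encode biglycan and decorin, close relatives with chondroitin or dermatan sulfate chains. Released biglycan is a ligand of the innate receptors TLR2 and TLR4, and decorin binds transforming growth factor beta and the receptors EGFR and MET. Bgn read 12.45, 11.80, 12.46 and 9.22 in under-developed replicates 1 to 4, against 9.88, 9.75, 9.01 and 8.69 in normal testes of obese rats and 9.04 and 8.31 in normal testes of lean rats. Under-developed replicates 1 to 3 were far above both normal groups, and replicate 4 was in the middle of the normal obese values. The fitted difference from normal obese testes was 2.15 ± 0.68 (SE) over all arrays, with a limma adjusted p of 0.0702, and 2.90 ± 0.33 without replicate 4, with a limma adjusted p of 1.9e-04. Dcn read 11.64, 10.52, 11.30 and 8.43 in under-developed testes, against 8.97, 9.05, 8.55 and 7.83 in normal obese testes and 8.31 and 7.42 in normal lean testes. The same 3 under-developed arrays stood clear of the normal groups, with replicate 2 the nearest to them. The Dcn difference was 1.87 ± 0.65 over all arrays (limma adjusted p 0.0712) and 2.55 ± 0.37, or 5.86-fold, without replicate 4 (limma adjusted p 6.0e-04). In bulk tissue, more cells of a type that makes a transcript and more of it per cell cannot be told apart, which holds for every gene here.

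Ogn and Omd encode osteoglycin, also called mimecan, and osteomodulin, a keratan sulfate proteoglycan first known from bone that binds collagen. Ogn read 12.64, 12.11, 12.55 and 10.31 in under-developed testes, against 10.53, 10.71, 10.61 and 10.09 in normal obese testes and 10.20 and 9.65 in normal lean testes. Omd read 9.69, 8.73, 9.80 and 6.76 in under-developed testes, against 6.74, 7.13, 7.20 and 6.68 in normal obese testes and 6.28 and 6.27 in normal lean testes. For both genes under-developed replicates 1 to 3 lay above the normal arrays, as for 28.7% of all genes, and replicate 4 lay within the normal obese range. Over all arrays the difference from normal obese testes was 1.41 ± 0.47 for Ogn and 1.81 ± 0.59 for Omd, each with a limma adjusted p of 0.0702. Without replicate 4, Ogn was higher by 1.95 ± 0.21 (limma adjusted p 1.4e-04) and Omd by 2.47 ± 0.26 (limma adjusted p 1.4e-04), which is 3.86-fold and 5.53-fold.

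Prelp encodes a proteoglycan-like protein whose basic N-terminal region binds heparan sulfate, linking basement membranes to the collagen beneath. Prelp read 9.99, 8.84, 10.24 and 7.61 in under-developed testes, against 7.87, 7.83, 7.47 and 7.35 in normal obese testes and 7.50 and 6.94 in normal lean testes. Replicates 1 and 3 were high, replicate 2 stood between them and the normal arrays, and replicate 4 was among the normal arrays. The difference was 1.54 ± 0.52 over all arrays (limma adjusted p 0.0703) and 2.06 ± 0.33, or 4.16-fold, without replicate 4 (limma adjusted p 8.7e-04).

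Lum and Fmod encode lumican and fibromodulin, keratan sulfate proteoglycans that bind overlapping sites on collagen. Fibromodulin also binds lysyl oxidase and takes part in collagen cross-linking. Lum read 6.06, 5.28, 5.93 and 4.44 in under-developed testes, against 4.50, 4.16, 4.42 and 3.84 in normal obese testes and 4.73 and 4.28 in normal lean testes. Replicates 1 to 3 of the under-developed testes exceeded every normal array. Lum differed by 1.20 ± 0.34 over all arrays (limma adjusted p 0.0702) and by 1.53 ± 0.23 without replicate 4 (limma adjusted p 7.1e-04). Fmod read 5.89, 6.17, 5.73 and 8.26 in under-developed testes, against 8.38, 8.17, 7.86 and 8.06 in normal obese testes and 8.11 and 7.86 in normal lean testes. For this gene replicates 1 to 3 were low and close to each other, with no overlap with the normal arrays, and replicate 4 was among the normal obese values. The Fmod difference was -1.61 ± 0.50 over all arrays (limma adjusted p 0.0702) and -2.19 ± 0.16 without replicate 4 (limma adjusted p 5.6e-05).

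Aspn encodes asporin, a relative of decorin and biglycan that lacks a glycosaminoglycan chain and binds collagen. Aspn read 5.89, 3.98, 4.62 and 4.28 in under-developed testes, against 4.15, 4.30, 3.92 and 3.76 in normal obese testes and 4.04 and 3.96 in normal lean testes. Replicate 1 was high, replicate 3 was slightly above the normal arrays, and replicates 2 and 4 lay within the normal obese range. The difference was 0.66 ± 0.36 over all arrays (limma adjusted p 0.178) and 0.80 ± 0.38 without replicate 4 (limma adjusted p 0.106), so Aspn did not pass in either fit. Aspn and Lum were dim, with means over the 10 arrays below 5.70, the 25th percentile of gene means. The levels of Fmod in under-developed replicates 1 to 3, at 5.73 to 6.17, were close to that value. Array medians were 6.14 to 6.38 and the lowest value on any array was 2.28. Near the lower end of an array's range a log2 difference understates a change, and whether this holds for Fmod was not tested.

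Over all arrays limma called 0 of the 8 members at an adjusted p under 0.05, and 0.0% of all genes. At an unadjusted p under 0.05, 7 members and 8470 of all 18166 genes passed. Without replicate 4 limma called 7 members: 6 rose, against 29.6% of all genes, and Fmod fell, against 26.4% of all genes. The median difference over the 8 members was 1.48 with all arrays and 2.00 without replicate 4, where the median over all genes was 0.06 and 0.07. RMA sets the arrays to a common scale, and the member values moved with other scalings. With replicate 4 left out, centring each array on a list of ribosomal proteins gave 6 members higher and 1 lower, where 2084 of all genes were higher and 13029 lower and the median of all genes stood at -0.72. Centring on a list of Sertoli cell genes moved the median of all genes to -1.17, with 1078 of all genes higher and 15424 lower. Bgn, Dcn, Ogn, Omd and Prelp were still called higher there and Fmod lower, whereas Lum at 0.29 (limma adjusted p 0.17) and Aspn at -0.44 (limma adjusted p 0.25) were not called.

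**Figure D2:**
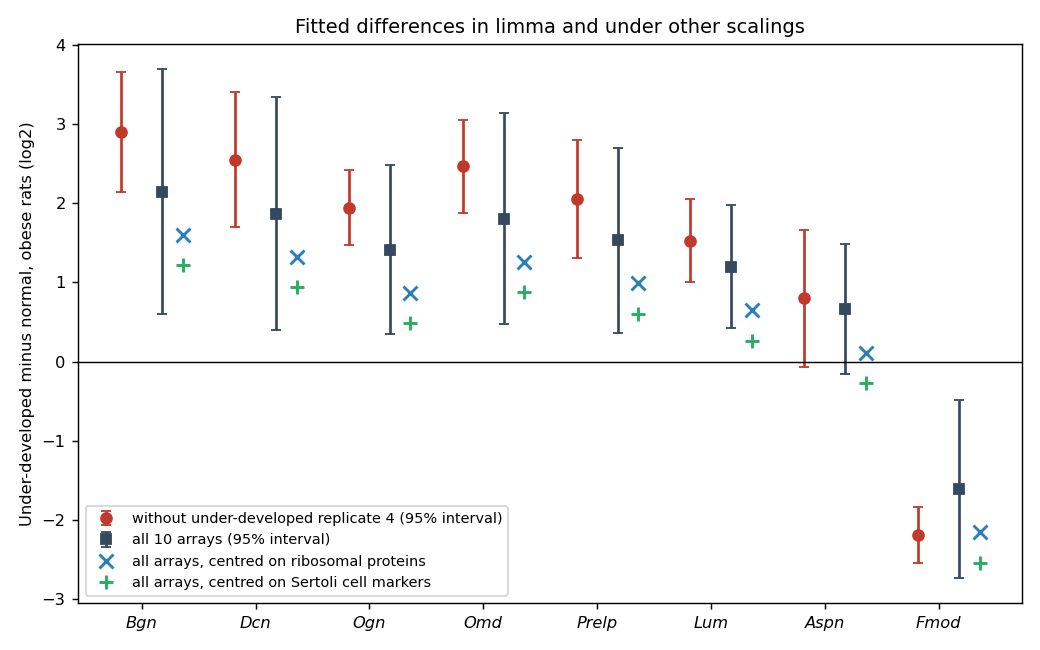
Fitted log2 difference of under-developed minus normal testes of obese rats (y axis) for the 8 genes. Circles leave out under-developed replicate 4 and squares use all 10 arrays, with 95% intervals; crosses and plus signs use all arrays centred on ribosomal proteins and on Sertoli cell markers, without intervals. The intervals without replicate 4 are narrower for 7 genes, and Aspn alone changes sign, at -0.27 under Sertoli cell centring.

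Each under-developed array was also set against the normal obese mean on its own. Replicate 1 had 7 members at least 1 log2 unit above the normal obese mean, against 15.5% of all genes, and 1 below it by as much, against 15.6%. Replicate 2 had 6 above (7.56% of all genes) and 1 below (6.18%). Replicate 3 had 6 above (19.2%) and 1 below (16.8%). Replicate 4 had 0 above (0.0385%) and 0 below (0.0055%). In every array with a member below, that member was Fmod. The median difference over the 8 members was 2.25 in replicate 1, 1.41 in replicate 2, 2.34 in replicate 3 and -0.07 in replicate 4, where the medians over all genes were 0.03, -0.02, 0.17 and 0.00. Replicate 2 was the nearest of replicates 1 to 3 to the normal obese mean for 8 of 8 members, as it was for 65.1% of all genes.

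Fmod had the narrowest range of the 8 members over replicates 1 to 3, from 5.73 to 6.17, near the dim limit of 5.70. Aspn and Lum, dim by their means over all arrays, ran from 3.98 to 5.89 and from 5.28 to 6.06 there. Whether a low level narrowed the range of Fmod was not tested. Its differences from the normal obese mean were -2.23, -1.95 and -2.39 in replicates 1, 2 and 3, whereas Prelp had 2.35, 1.20 and 2.61. Germ cell markers varied far more: the spermatid list averaged -2.78, -0.72 and -4.00 and the spermatocyte list -2.25, -0.64 and -3.60. In replicate 2, Fmod therefore lay further below the normal obese mean than either germ cell list, and in replicate 3 less far. Somatic marker lists moved the other way. The macrophage list averaged 2.45, 1.49 and 2.32 in replicates 1 to 3, the Leydig cell list 1.41, 0.80 and 1.59, and the Sertoli cell list 1.29, 1.01 and 1.42. The fibroblast list averaged 1.26, 0.96 and 1.54, the peritubular myoid list 1.06, 0.85 and 1.65, and the endothelial list 0.79, 0.58 and 1.00. In replicate 4 these 8 lists lay between -0.27 and 0.01.

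**Figure D3:**
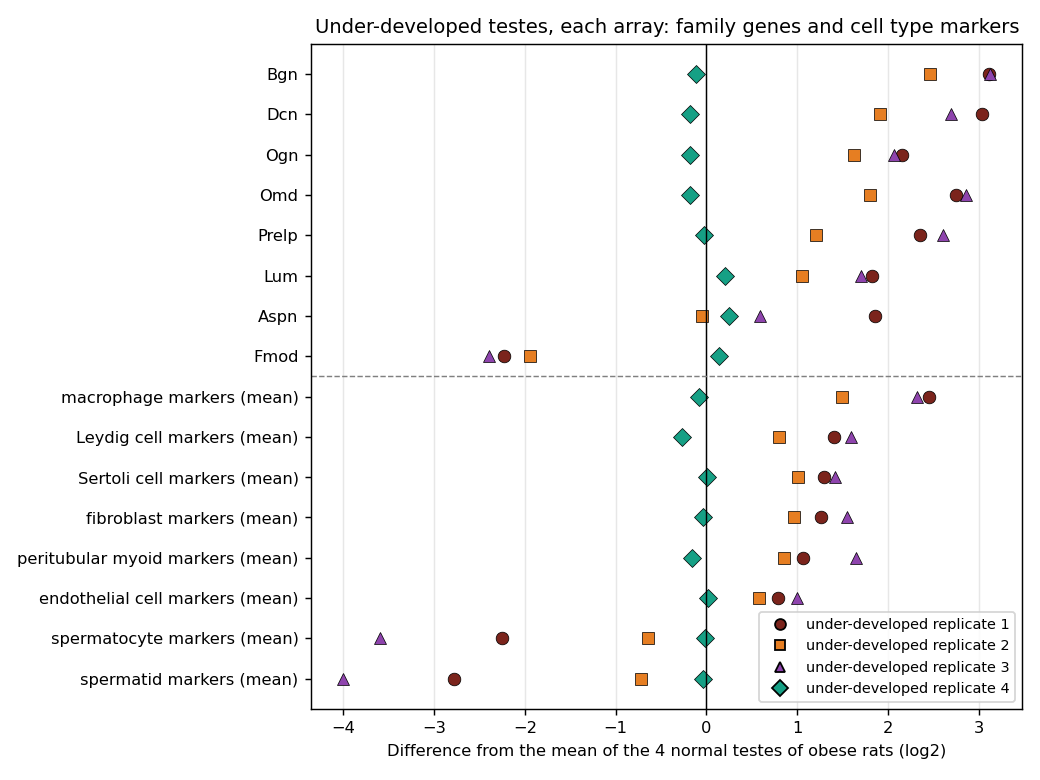
Log2 difference of each under-developed array from the mean of the 4 normal testes of obese rats (x axis), for the 8 genes (above the dashed line) and for the mean of each cell type marker list (below it). Fmod lies between -2.39 and -1.95 in replicates 1 to 3 while the spermatid list spans -4.00 to -0.72; all values of replicate 4 lie near 0.

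Without replicate 4, where limma called 29.6% of all genes higher and 26.4% lower, it called higher 10 of 10 macrophage, 7 of 8 peritubular myoid, 7 of 9 fibroblast, 7 of 10 Sertoli cell, 6 of 7 endothelial and 5 of 7 Leydig cell markers. It called lower 1 fibroblast and 1 Sertoli cell marker, and none of the other 4 somatic lists. The germ cell lists went the other way, with 10 of 10 spermatid and 8 of 10 spermatocyte markers lower and none higher. Their part in the differences of the family was not tested. The macrophage mean ranged from 6.99 to 9.52 in under-developed testes, against 6.81 to 7.30 in normal obese testes and 6.71 to 7.01 in normal lean testes. The fibroblast mean ranged from 7.18 to 8.76 in under-developed testes, against 7.13 to 7.28 in normal obese testes and 6.98 to 7.06 in normal lean testes. The myoid mean ranged from 6.84 to 8.65 in under-developed testes, against 6.85 to 7.21 in normal obese testes and 6.68 to 6.74 in normal lean testes. Of lists for tissues where several members were first described, cartilage and bone had 0 of 7 genes called. Of 8 adipocyte genes 2 were higher and 3 lower, of 8 epididymis genes 1 was higher and 1 lower, and of 39 ribosomal protein genes 33 were higher and 1 lower. With all arrays, limma called none of the genes of any list.

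In genome order the members lie in clusters on chromosomes 7, 13 and 17, with Bgn by itself on the X chromosome. On chromosome 13, Prelp and Fmod are adjacent protein-coding genes, and without replicate 4 limma called Prelp higher and Fmod lower. Before them lie Atp2b4, a calcium pump gene, at -1.09, -1.15, -0.90 and 0.17 in under-developed replicates 1 to 4, and Optc, which encodes the relative opticin. After them lies Chit1, a chitinase gene, at -0.79, -0.73, -1.11 and -0.12, beyond Btg2, which was not used here. Without replicate 4, Atp2b4 fell by 1.05 (limma adjusted p 1.0e-04) and Chit1 by 0.88 (limma adjusted p 5.4e-04), and Optc at 0.12 ± 0.17 was not called. On chromosome 17, Ogn, Omd and Aspn lie in a row inside the span of Cenpp, a centromere protein gene. Cenpp fell by 1.46 without replicate 4 (limma adjusted p 0.0084), while Ogn and Omd rose and Aspn was not called. Cenpp stood at -1.56, -0.45, -2.38 and -0.11 in under-developed replicates 1 to 4.

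On chromosome 7, Dcn and Lum, which both rose without replicate 4, are followed by Kera, which encodes the corneal proteoglycan keratocan, and by Epyc, which encodes epiphycan, known from growth cartilage. Kera stood at 0.02, -0.03, 0.03 and 0.19 in under-developed replicates 1 to 4 and was not called. Its normal obese mean of 4.02 was dim, so a change at low level could be missed. Epyc stood at 2.85, 2.10, 3.15 and -0.24, and rose by 2.70 ± 0.23 without replicate 4 (limma adjusted p 7.4e-05). Bgn, on the X chromosome, follows Haus7, a spindle complex gene that stood at 2.34, 1.72, 2.40 and 0.05. Without replicate 4, Haus7 rose by 2.16, Trex2 before it by 1.38 and Atp2b3 after Bgn by 1.30, and RGD1565183 was not called. On the other chromosomes, Nol8 before Cenpp fell by 1.49 and Btg1 before Dcn by 0.47. Among all genes, limma called 29.6% higher and 26.4% lower in that fit. Gene order came from RefSeq, whose assembly may not be the one used to design the probes.

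**Figure D4:**
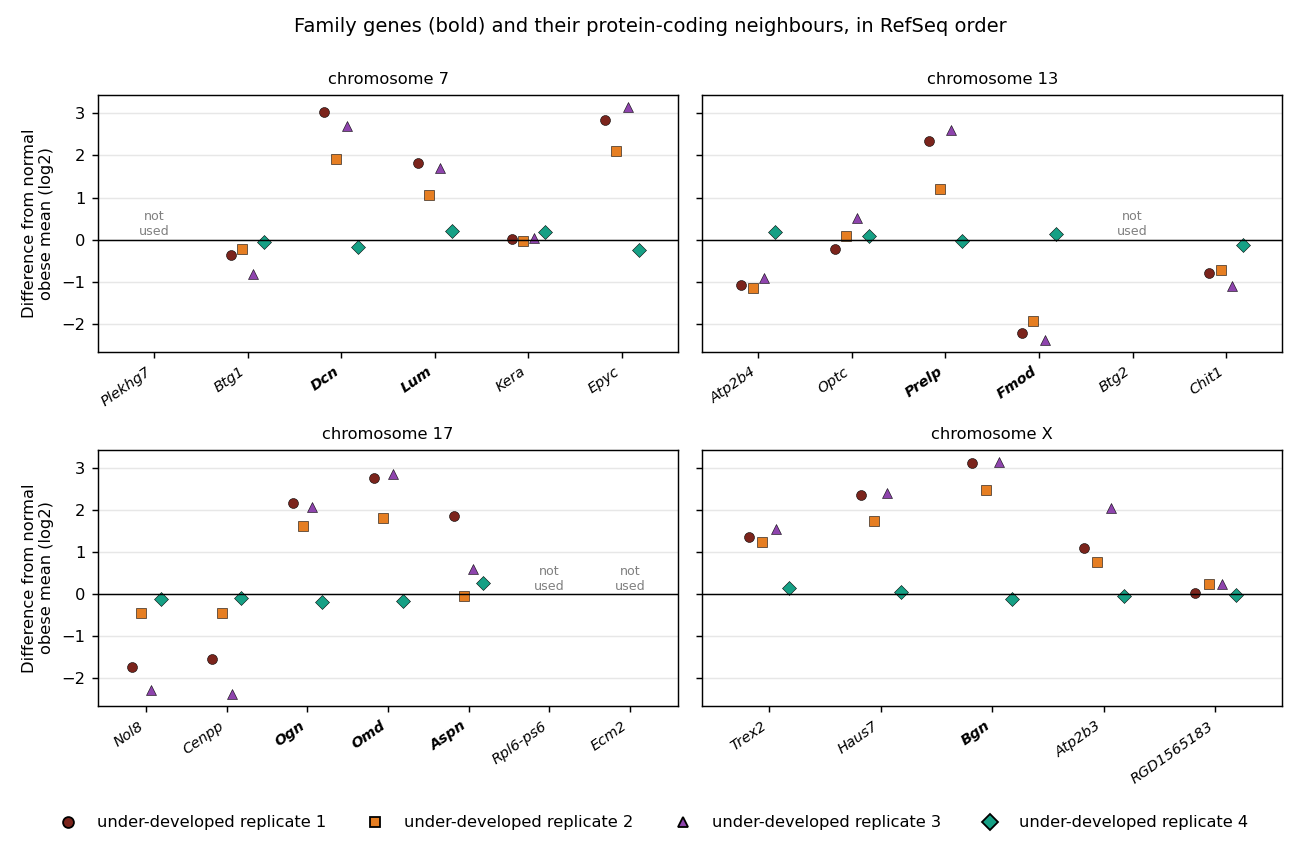
Log2 difference of each under-developed array from the normal obese mean (y axis) for family genes (bold) and neighbouring protein-coding genes in RefSeq order (x axis, not to scale); "not used" marks genes without a probe set carrying that symbol alone. Prelp lies above 0 and its neighbour Fmod below 0 in replicates 1 to 3, and Ogn and Omd lie above 0 where Cenpp lies below.

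The counts for partner genes below leave out replicate 4, where 29.6% of all genes were called higher and 26.4% lower, with a median of 0.07. Among 7 other measured genes of the wider family, 1 rose without replicate 4, Epyc, and none fell. Kera, Optc, Chad, Nyx, Podnl1 and Tsku were not called, and the median over the 7 was 0.19. The collagens that these proteins bind gave 6 of 13 genes higher and 1 lower, with a median of 0.36. Col3a1, of reticular fibrils, rose by 2.01 ± 0.27 (limma adjusted p 4.3e-04) and stood at 2.25, 1.22, 2.57 and -0.30 in under-developed replicates 1 to 4. Col6a2 and Col6a3, of beaded filaments that bind biglycan and decorin, rose by 1.58 ± 0.22 and 1.39 ± 0.19, and the gene that fell was Col12a1. Among enzymes and chaperones of collagen processing, 9 of 18 rose and 3 fell, with a median of 0.38. Plod2, a lysyl hydroxylase, rose by 2.74 ± 0.26, Pcolce, which speeds removal of the procollagen C-propeptide, by 2.64 ± 0.24, and Serpinh1, a collagen chaperone, by 2.00 ± 0.16. The genes that fell were Loxl1, a lysyl oxidase, by 0.52, and the procollagen proteinase genes Bmp1 by 0.58 and Adamts14 by 0.48. Of the same enzyme kinds, Lox rose by 0.79, Adamts2 by 0.46 and Adamts3 by 1.22. Loxl2, Loxl3, Loxl4, Tll1 and Tll2 were not called.

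Genes that build or sulfate the glycosaminoglycan chains gave 16 of 29 higher and 2 lower, with a median of 0.66. Dsel, related to the epimerase that makes dermatan sulfate, stood at 3.50, 2.46, 3.10 and 0.07 in under-developed replicates 1 to 4 and rose by 3.02 ± 0.27 without replicate 4 (limma adjusted p 8.1e-05). Ust, a uronyl sulfotransferase, rose by 2.46 ± 0.26 and Slc26a2, a sulfate transporter, by 1.82 ± 0.20. Xylt1, which starts the chains on the core protein, fell by 0.44, while its relative Xylt2 rose by 0.96. Csgalnact1, which starts chondroitin elongation, fell by 0.65, while its relative Csgalnact2 rose by 1.39. Other proteoglycans gave 8 of 21 higher and 4 lower, with a median of 0.18: the syndecan genes Sdc4 and Sdc2 rose by 2.92 ± 0.17 and 1.98 ± 0.21 and Spock2 by 1.94 ± 0.23, and Vcan, Gpc2, Srgn and Spock3 fell.

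Receptors and growth factors that family members bind gave 11 of 16 higher and 1 lower, with a median of 0.69. Lrp1, an endocytic receptor for decorin, rose by 2.62 ± 0.22, Igf1r by 2.21 ± 0.25, Met by 2.03, Tlr4 by 1.34 and Egfr by 0.65. Of the growth factors, Tgfb3 rose by 2.35 ± 0.25, whereas Tgfb1 at 0.35 was not called (limma adjusted p 0.0738). Tlr2 at 0.31 was not called (limma adjusted p 0.0504), and P2rx7, an ATP-gated channel gene, fell by 1.10. Proteases that cleave these proteins gave 4 of 10 higher and none lower, with a median of 0.39. Htra1, a secreted serine protease, stood at 3.67, 3.02, 4.12 and -0.18 in under-developed replicates 1 to 4 and rose by 3.60 ± 0.23 (limma adjusted p 5.0e-05). Adamts1 rose by 1.85 ± 0.21 and Mmp14 by 1.70 ± 0.23.

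For each member, the 3 genes outside the family with the most similar values were those with the smallest root mean square difference over the 10 arrays, each gene taken relative to its normal obese mean. Bgn lay nearest to Cd48, an immune cell surface gene, at 0.17 log2 units, then C1r of the complement cascade at 0.18 and Tmem100 at 0.23. Dcn lay nearest to Akr1c14 at 0.13, the lysosomal protease gene Ctss at 0.19 and Gabrg1 at 0.21. Ogn lay nearest to Srpx at 0.15, Dpt, a matrix protein gene, at 0.15 and Hsd11b1 at 0.16. For Omd these were Rpl10 at 0.17, Pnp at 0.18 and Txn1 at 0.19, and for Prelp S100b at 0.12, Fbn1, which encodes the microfibril protein fibrillin, at 0.13 and Mbnl1 at 0.16. Lum had Map3k21 and Fgf7, each at 0.14, and Mir465 at 0.18. Fmod had Chn3 at 0.18, FAM187A at 0.20 and Sncaip at 0.20, which like Fmod stood below the normal obese mean in replicates 1 to 3. Aspn had no gene nearer than Cnrip1 at 0.23, with Mrpl49 at 0.23 and Mir883 at 0.23. All 10 arrays entered the measure, including the under-developed replicates 1 to 3 that stood apart.

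The second comparison asked whether the family differed with obesity among normally developed testes. Limma called 0 of 8 members, with an adjusted p of 1.00 for each, and 0.0% of all genes; at an unadjusted p under 0.05, 0 members and 80 of all genes passed. In a fit of only these 2 groups, which leaves out the spread of the under-developed arrays, 2 members and 1141 of all genes passed unadjusted, and with array weights 3 members and 1263 genes; limma called no member in either. For 7 of 8 members the normal obese mean was above the normal lean mean, as for 52.0% of all genes, and Lum was the exception at -0.27. The differences were 0.74 for Dcn (95% interval -1.06 to 2.54), 0.66 for Bgn (-1.23 to 2.55), 0.66 for Omd (-0.96 to 2.29) and 0.56 for Ogn (-0.74 to 1.87). Prelp at 0.42, Fmod at 0.13 and Aspn at 0.03 were smaller. These intervals use a spread that includes the under-developed arrays. Without under-developed replicate 4 the interval of Ogn was 0.03 to 1.09, and the difference of Omd was 0.66 ± 0.29, each again with a limma adjusted p of 1.00. Omd was the single member whose normal obese and normal lean arrays did not overlap, with the obese higher, as in 7.7% of all genes. Among all genes 7.27% did not overlap with the obese lower, and no member did.

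Among the normal obese arrays the family varied more than most genes. The SD over the 4 normal obese arrays was 0.58 for Bgn and 0.56 for Dcn, above 99.9% of all genes, whose median SD was 0.10. Bgn and Dcn were among 76 genes (0.418%) whose 4 normal obese arrays spanned at least 1 log2 unit. The other SDs were 0.30 for Lum, 0.27 for Ogn, 0.27 for Omd, 0.26 for Prelp, 0.24 for Aspn and 0.22 for Fmod, the last above 90.4% of genes. Normal obese replicate 4 was the lowest of its group for 7 of 8 members, as for 25.3% of all genes, with Fmod the exception. Normal lean replicate 2 was below normal lean replicate 1 for 8 of 8, as for 50.2% of all genes. The macrophage marker mean was 7.30, 7.17, 6.97 and 6.81 on normal obese replicates 1 to 4, and 7.01 and 6.71 on the lean arrays. This was the same order as Bgn within each normal group. The fibroblast mean was 7.26, 7.28, 7.20 and 7.13 on normal obese replicates 1 to 4, and 7.06 and 6.98 on the lean arrays. Dcn had the same order as the fibroblast mean within each normal group. The Sertoli cell mean had this order too, at 8.60, 8.64, 8.58 and 8.55 on normal obese replicates 1 to 4. On the lean arrays it was 8.57 and 8.48. The mean of the glycosaminoglycan chain genes also had the order of Dcn, so the order was not particular to fibroblast markers. The Leydig cell mean, at 8.01, 8.24, 8.14 and 7.70 on normal obese replicates 1 to 4, had the order of Ogn there. The myoid mean, at 7.21, 7.07, 6.88 and 6.85, had the order of Bgn on normal obese replicates 1 to 4. On the lean arrays it did not, at 6.68 and 6.74. Whether tissue make-up sets this spread was not tested.

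The last comparison set the under-developed testes of obese rats beside the normally developed testes of lean rats, and it shares its under-developed arrays with the first comparison and its lean arrays with the second. Limma called 0 of 8 members over all arrays and 0.0% of all genes, with adjusted p from 0.154 to 0.275; 6 members and 5776 of all genes passed an unadjusted p under 0.05. Without replicate 4, 6 members rose, against 25.6% of all genes, and 1 fell, against 23.2%. The differences over lean testes were then 3.56 ± 0.40 for Bgn, 3.29 ± 0.45 for Dcn, 3.13 ± 0.31 for Omd, 2.51 ± 0.25 for Ogn, 2.47 ± 0.39 for Prelp and 1.26 ± 0.28 for Lum. Fmod differed by -2.06 ± 0.19, and Aspn at 0.83 ± 0.45 was not called (limma adjusted p 0.166). In order of group means, Bgn, Dcn, Ogn, Omd, Prelp and Aspn stood highest in under-developed, next in normal obese and lowest in normal lean testes. For Aspn the step between the normal groups was only 0.03 ± 0.45. The share of all genes with this order was not counted, and 52.0% of all genes had the normal obese mean above the lean mean. Between the normal groups limma called no member, and the arrays of Omd alone did not overlap.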

How the data were processed

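The authors deposited a log2 level for each probe set on each array, made with RMA per the submitters' processing notes. Total RNA was extracted with Trizol and biotin-labelled with the Affymetrix WT PLUS kit, per the labels' protocols. RMA normalizes between arrays, so a change in tissue make-up lowers some genes relative to others. The genome build was not given in the sources used here. Of 36685 probe sets, 18511 carried 1 symbol, 575 several, and 17599 were unnamed here; 18394 matched RefSeq by gene number. Where a gene had several probe sets (291 genes), the brightest by mean over all arrays was kept, with no filter on dim values.

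Differences were fitted with limma 3.58.1 in R 4.3.3 (lmFit, eBayes), all 10 arrays in 1 fit with a mean per group. P-values were adjusted by Benjamini-Hochberg over 18166 genes, at a threshold of 0.05. The fit was tested on simulated data. Noise there was equal for all genes, below the median spread of the real genes, and no array deviated from its group. That test therefore does not cover the spread of the under-developed arrays. Intervals are 95%. Python 3.11.15, numpy 2.4.6, pandas 2.3.3 and matplotlib 3.10.9 made the summaries, sequence searches and plots. Groups came from the sample titles. The text names every member, the 3 nearest genes of each, genome neighbours, and up to 3 genes of each list with the largest difference. It also names list genes that fell, list genes of the same enzyme kinds, and well-known partners. These further genes were chosen after their values were seen. The members and the gene lists were chosen with earlier results of these data known.

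Alternatives were other scalings (median, ribosomal protein or Sertoli cell centring, quantile again), an offset before log2, a filter on dim genes and the mean over probe sets. Others were moderation with trend and robust settings together, array weights, only the groups compared, a replicate block, and each array left out. Scalings with under-developed replicate 4 left out were added after seeing the data.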

Additional observations from a re-analysis of the deposited data

How the results depend on the processing

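For under-developed against normal obese testes, limma's count over all genes was 12554 with Sertoli cell centring, 9862 with array weights and 0 to 10171 with 1 array left out, against 0 with all arrays; members called were 3, 8 and 0 to 7. Of the arrays left out in turn, under-developed replicate 4 was the only one whose removal gave calls. With it left out, the counts were 9901 with median centring, 15113 with ribosomal protein centring, 16502 with Sertoli cell centring and 9653 with quantile normalization again, and members called were 7, 7, 6 and 7. For under-developed against normal lean testes, array weights gave 9620 genes and 8 members, and leaving out 1 array gave 0 to 8866 genes and 0 to 7 members. In the order above, the rescaled fits without replicate 4 gave 8910, 14965, 16308 and 8396 genes and 7, 6, 6 and 7 members. For normal obese against normal lean testes, array weights and the fit of only these groups each gave 1 gene, no member. Sertoli cell centring turned Aspn to -0.27 against normal obese and -0.31 against normal lean testes, and Lum to -0.0728 against normal lean. Without replicate 4 as well, these were -0.44, -0.48 and -0.0507, and ribosomal protein centring gave Aspn -0.0462 against normal lean. In normal obese against lean testes Aspn was -0.0613 with ribosomal protein and -0.0353 with Sertoli cell centring, with or without under-developed replicate 4, and -0.0573 to 0.12 with 1 array left out. There the replicate block turned Fmod to -0.0306. With the block limma called 0 genes in each comparison. The replicate numbers are not stated to mark shared animals or days, so they were not taken as pairs. Deviations of same-numbered under-developed and normal obese arrays from their group means correlated at 0.08, 0.01, 0.02 and 0.26. These values cannot decide whether samples were paired, because the under-developed arrays differed far more among themselves than the normal obese arrays did. The cause of these changes was not tested. Lum and Aspn were dim and left no value under the filter on dim genes.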
